A study of Mus musculus with 20 samples.

Results

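The nuclear genes for the subunits of oxidative phosphorylation were followed in mouse gastrocnemius, a muscle of the calf, after treatment with JA16, an antibody against myostatin, or with saline. The list held 52 gene symbols for complexes I to V and cytochrome c, and 51 of them were measured among the 11200 genes tested. Each gene was read from the probe set that the array annotation assigned to that gene alone and that had the highest mean signal over all samples. Complex I was represented by 19 genes, complex II by 4, complex III by 6, cytochrome c by 1, complex IV by 9 and complex V by 12. Cox7b had no probe set assigned to it alone and is not analysed here. The ATP synthase gene listed under its older name Atp5f1 was measured as Atp5pb.

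The JA16 group received the antibody by injection into the peritoneum, at 0.12 mg per g body weight on day 1 and 0.09 mg per g on day 3. The control group received saline in the same way, and all mice were killed on day 5. Each group had 10 samples, numbered 1 to 10, with 1 array per sample. The labels give neither strain, age nor sex, nor whether every sample is a separate mouse, so the p-values measure the spread between these samples, which may be partly technical. The samples were whole muscle, in which fewer cells of a type and less RNA per cell cannot be told apart. All 12 of the skeletal muscle marker genes examined passed the filter on low signal in this tissue, with summed intensities of 156512 to 194916 in saline and 158740 to 213797 in JA16 samples.

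Oxidative phosphorylation takes place in the inner mitochondrial membrane. Complexes I and II pass electrons from NADH and succinate to ubiquinone, complex III passes them on to cytochrome c, and complex IV passes them to oxygen. The proton gradient built by complexes I, III and IV drives complex V, the ATP synthase. In skeletal muscle the pathway is most abundant in slow and other oxidative fibres, and loss of myostatin is known to favour fast glycolytic fibres. Most subunits are encoded in the nucleus, where nuclear respiratory factor 1 (NRF1), GA-binding protein (GABP), the estrogen-related receptors (ERR) and YY1 are known regulators of these genes.

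Promoters of 40 of the 51 members were found in RefSeq (build GRCm38.p6), as windows from 250 bases before to 50 bases after the annotated start. The 120 bases before the start of 4 members are shown as examples of such promoters with a motif match close to the start, printed in the direction of transcription (all on the minus strand), with a match to an NRF1, GABP or ERR motif in capitals. Cycs encodes cytochrome c, Sdhd a membrane anchor of complex II, Atp5g3 the membrane ring subunit c of ATP synthase and Atp5h a subunit of its peripheral stalk. The stretches lie at chr6:50566570-50566689 for Cycs, chr9:50603850-50603969 for Sdhd, chr2:73911327-73911446 for Atp5g3 and chr11:115419920-115420039 for Atp5h.
Cycs: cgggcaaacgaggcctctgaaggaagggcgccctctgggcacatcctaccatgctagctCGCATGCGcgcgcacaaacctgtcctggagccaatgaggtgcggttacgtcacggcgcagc
Sdhd: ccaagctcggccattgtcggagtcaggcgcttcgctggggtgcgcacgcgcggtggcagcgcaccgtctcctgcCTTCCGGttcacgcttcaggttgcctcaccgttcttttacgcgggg
Atp5g3: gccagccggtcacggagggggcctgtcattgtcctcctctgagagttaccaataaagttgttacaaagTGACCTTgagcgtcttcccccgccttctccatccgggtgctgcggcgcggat
Atp5h: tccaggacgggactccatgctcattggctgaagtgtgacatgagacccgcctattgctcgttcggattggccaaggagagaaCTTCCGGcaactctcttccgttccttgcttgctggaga

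The capitals mark CGCATGCG (NRF1) in Cycs, CTTCCGG (the reverse strand of the GABP motif CCGGAAG) in Sdhd and Atp5h, and TGACCTT (the reverse strand of the ERR motif AAGGTCA) in Atp5g3. Their first bases lie at positions -61, -46, -38 and -52 from the annotated start in Cycs, Sdhd, Atp5h and Atp5g3. Over the whole window and both strands, CGCATGCG was present in 4 of the 40 member promoters (10%), against 3.98% of 9055 promoters of tested genes and 1.91% of all 27018 promoters. The ERR motif was present in 4 members (10%), against 3.03% and 4.66%. The YY1 motif AAGATGGC was present in 6 members (15%), against 4.99% and 2.88%, and the members were Atp5pb, Ndufa9, Ndufb8, Ndufc1, Ndufs4 and Ndufs7. The GABP motif was present in 9 members (22.5%), against 18.3% and 9.12%. The Sp1 motif GGGCGG was present in 15 members (37.5%), against 65.3% of promoters of tested genes and 35.9% of all promoters. The letters TATAAA were present in 3 members (7.5%: Atp5l, Cox8b and Ndufs7), against 7.36% and 14.2%. These are matches of letters and were not tested as binding sites.

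The values are array intensities in the authors' linear units, and a difference is the JA16 mean minus the saline mean of log2 intensity, taken within same-numbered pairs. Every array had a trimmed mean intensity of 500, and array medians ran from 38.9 to 77.1. The log2 ratio of the 3′ to the 5′ probe set for beta-actin, a measure of how complete the RNA or its copy was, ran from 1.33 to 1.84 in samples numbered 1 to 6 and from 0.48 to 0.64 in samples numbered 7 to 10. The same ratio for Gapdh ran from 0.21 to 0.41 and from 0.18 to 0.32. Samples 1 to 6 and 7 to 10 are therefore treated as array sets, each with JA16 and saline samples of the same numbers. In the labels' array numbering each saline array directly precedes its JA16 partner, so array order within pairs and treatment cannot be told apart.

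The members were among the brightest genes on the array. Leaving out Cox7c, the 50 other members had mean intensities from 6925 to 26289 and ranked between 4 and 675 of 11200, and 45 of them were in the top 500. Cox7c, a small complex IV subunit, was read by a dim probe set with a mean intensity of 100.3, at rank 10482. The SD of the within-pair differences had a median of 0.16 on the log2 scale over the 51 members, against 0.34 over all genes tested.

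No member passed an adjusted p of 0.05 between JA16 and saline (limma with the replicate number as a block, Benjamini-Hochberg over 11200 genes), against 31 of all genes (0.277%). Most members had slightly higher means in JA16. The difference was above 0 in 45 of 51, against 45.8% of all genes, and it ran from -0.19 to 0.23 with a median of 0.065, against a median of -0.016 over all genes. An unadjusted p under 0.05 was reached by 6 members, all higher in JA16, while 7.49% of all genes reached it higher and 8.76% lower. Those 6 were Sdhd, Cyc1, Atp5g1, Ndufv2, Ndufb8 and Ndufa4, and the smallest adjusted p was 0.191 for Sdhd (limma). Among the 3001 brightest genes, which held 50 of the members, 57.9% of genes had higher means in JA16 and 15% reached an unadjusted p under 0.05 higher, so the members' share at that p was no greater than that of other bright genes. JA16 and saline intensities overlapped for all 51 members, and groups that did not overlap were found for 0% of all genes. When the block was left out, no member passed either threshold (smallest adjusted p = 1.0, limma), and the adjusted one was passed by 4 genes of the whole array (0.0357%).

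**Figure D1:**
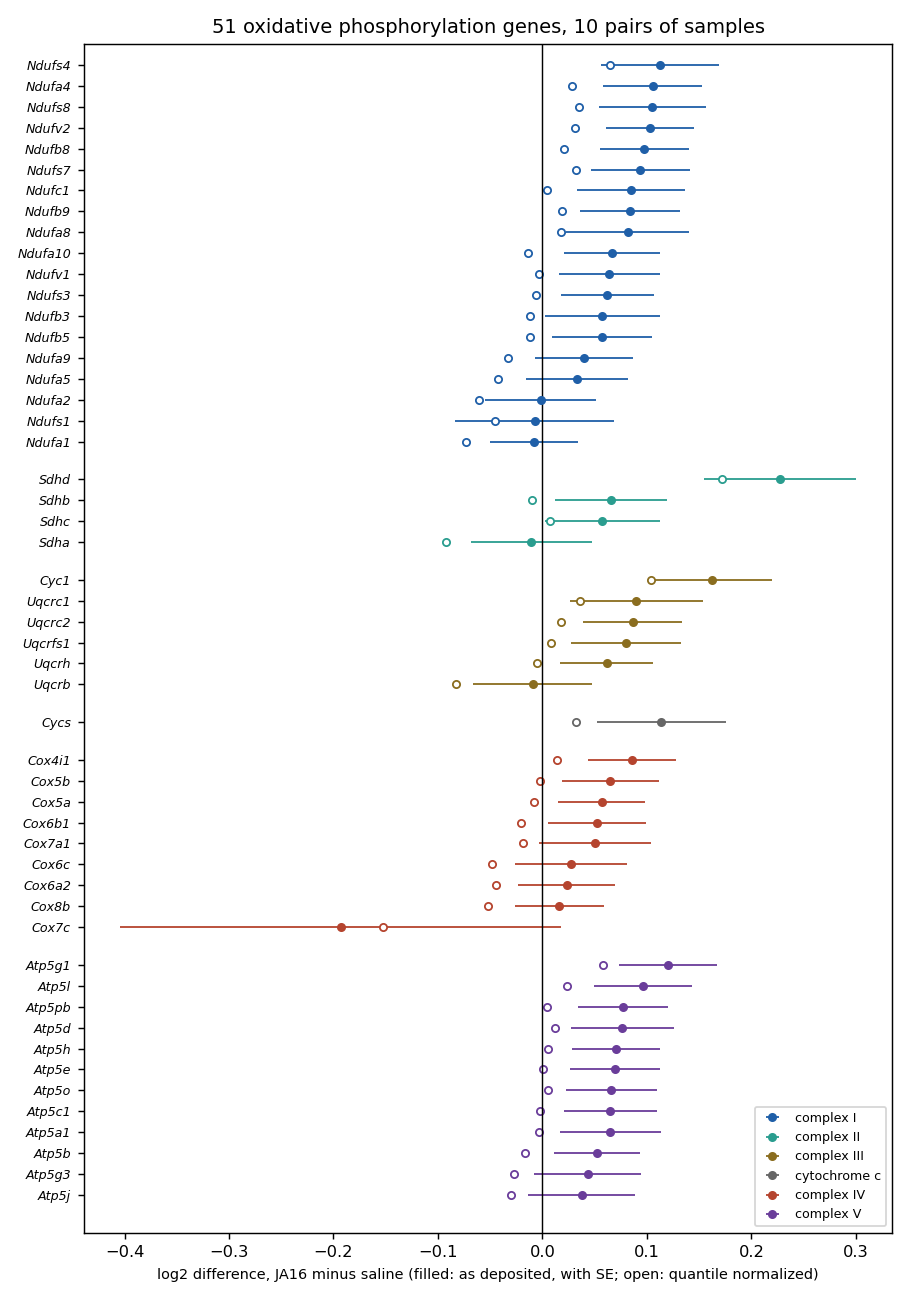
Log2 difference (JA16 minus saline) of 51 oxidative phosphorylation genes, ordered by complex, over 10 pairs of samples. Filled points with bars show the deposited scaling with its standard error and open points show quantile-normalized values. Filled points lie between -0.19 and 0.23 with 45 above 0, and after quantile normalization 24 lie above 0.

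Complex I oxidizes NADH and is the largest complex of the chain. Of its 19 measured genes, 16 had higher means in JA16, with a median difference of 0.067 and a range from -0.0079 to 0.11. Ndufv2, an iron-sulfur subunit of the NADH-oxidizing module, ran from 10599 to 15774 in saline (median 13797) and from 12931 to 18211 in JA16 (median 14221). Its difference was 0.10 (SE 0.042, n = 10 pairs, adjusted p = 0.255, limma), with JA16 higher in 9 of 10 pairs. Ndufb8, an accessory membrane subunit, ran from 10081 to 17000 in saline (median 15255) and from 10999 to 20232 in JA16 (median 15157), with a difference of 0.098 (SE 0.042, adjusted p = 0.277, limma) and 9 of 10 pairs higher. Its group medians lay in the opposite order to its mean difference, and the groups of both genes overlapped over most of their range.

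Ndufc1, a small membrane subunit, had the highest mean intensity of the complex I probe sets. It ran from 19510 to 31046 in saline (median 26795) and from 22493 to 31528 in JA16 (median 27642), with a difference of 0.085 (SE 0.052, adjusted p = 0.422, limma). JA16 was higher in 9 of 10 pairs, and pair 1 was the exception, at -0.38. Ndufs4, an accessory subunit needed for a stable NADH-oxidizing module, had the largest mean difference in complex I, 0.11 (SE 0.056, adjusted p = 0.334, limma). It ran from 5450 to 9052 in saline (median 8357) and from 6184 to 9548 in JA16 (median 8640), and sample 8 was the lowest in both groups. Ndufa4, named as a complex I subunit but now known as part of complex IV, ran from 11631 to 14695 in saline (median 12975) and from 11925 to 15077 in JA16 (median 14298). It had a difference of 0.11 (SE 0.047, adjusted p = 0.293, limma).

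The other catalytic core genes of complex I showed differences of the same small size. The iron-sulfur subunits Ndufs7 and Ndufs8 had differences of 0.094 and 0.11, the flavin-binding subunit Ndufv1 had 0.064 and Ndufs3 had 0.062. Ndufs1, the largest core subunit, had -0.0074 (SE 0.076), and its pair differences ran from -0.39 in pair 6 to 0.47 in pair 7. Among accessory subunits the differences were 0.084 for Ndufb9, 0.082 for Ndufa8, 0.067 for Ndufa10 and 0.057 for both Ndufb3 and Ndufb5. They were 0.040 for Ndufa9, 0.033 for Ndufa5, -0.0017 for Ndufa2 and -0.0079 for Ndufa1. None of these 14 genes reached an unadjusted p of 0.05.

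Complex II, succinate dehydrogenase, also belongs to the citric acid cycle, and all of its subunits are nuclear. Sdhd had the largest difference of all members, 0.23 (SE 0.072, adjusted p = 0.191, limma), with JA16 higher in 8 of 10 pairs. Its intensity ran from 4782 to 11117 in saline (median 7503) and from 6626 to 11308 in JA16 (median 8634). Sample 4 was the lowest and sample 6 the highest in both groups. Sdhb, the iron-sulfur subunit, ran from 9287 to 14645 in saline (median 12083) and from 9700 to 15511 in JA16 (median 12035), with a difference of 0.065 (SE 0.054, adjusted p = 0.555, limma). Sdha, the flavoprotein that binds succinate, ran from 10293 to 16075 in saline (median 14349) and from 9923 to 17143 in JA16 (median 13450), with a difference of -0.011 (SE 0.058, adjusted p = 0.951, limma). Sdhc, the other membrane anchor, had a difference of 0.057. The 4 genes of this complex thus spanned -0.011 to 0.23, with a median of 0.061.

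Complex III moves electrons from ubiquinol to cytochrome c, and 5 of its 6 genes had higher means in JA16, with a median of 0.083. Cyc1, the cytochrome c1 subunit, had a difference of 0.16 (SE 0.057, adjusted p = 0.206, limma) and was higher in 8 of 10 pairs. It ran from 6932 to 14719 in saline (median 12120) and from 9108 to 17096 in JA16 (median 13633), and sample 7 was the lowest in both groups. Uqcrc2, a core subunit, ran from 9345 to 17224 in saline (median 15509) and from 10461 to 20841 in JA16 (median 15050), with a difference of 0.086 (SE 0.047, adjusted p = 0.372, limma). Uqcrh, the hinge subunit that holds cytochrome c1, ran from 14850 to 20979 in saline (median 18738) and from 16431 to 24710 in JA16 (median 18257), with a difference of 0.062 (SE 0.044, adjusted p = 0.497, limma). In Uqcrc2 and Uqcrh the JA16 median lay below the saline median although the paired mean was higher. The differences were 0.090 for Uqcrc1, the other core subunit, 0.080 for Uqcrfs1, the Rieske iron-sulfur protein, and -0.0093 for Uqcrb.

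Cycs, the mobile carrier between complexes III and IV, whose upstream stretch held the NRF1 match shown above, ran from 9367 to 15140 in saline (median 13495) and from 11194 to 16380 in JA16 (median 14437). Its difference was 0.11 (SE 0.062, adjusted p = 0.37, limma), and its pair differences ran from -0.30 in pair 1 to 0.50 in pair 8. The groups overlapped, and the within-pair range was far wider than the mean.

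Complex IV, cytochrome c oxidase, reduces oxygen. Of its 9 measured genes 8 had higher means in JA16, with a median of 0.050, and none reached an unadjusted p of 0.05. Cox4i1, the broadly expressed form of subunit 4, ran from 9986 to 18498 in saline (median 16041) and from 11697 to 21463 in JA16 (median 17135), with a difference of 0.086 (SE 0.042, adjusted p = 0.325, limma). Cox5b ran from 12344 to 20598 in saline (median 18675) and from 13607 to 25075 in JA16 (median 17764), with a difference of 0.065 (SE 0.047, adjusted p = 0.497, limma). Cox6b1, a subunit on the cytochrome c side, ran from 14575 to 24864 in saline (median 22182) and from 15389 to 29167 in JA16 (median 20858), with a difference of 0.052 (SE 0.047, adjusted p = 0.594, limma). Saline sample 7 was the lowest and JA16 sample 2 the highest for Cox4i1, Cox5b and Cox6b1.

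The remaining complex IV genes had differences of 0.057 for Cox5a, 0.050 for Cox7a1, 0.028 for Cox6c, 0.023 for Cox6a2 and 0.016 for Cox8b, of which Cox6a2, Cox7a1 and Cox8b are the heart and skeletal muscle forms of their subunits. The dim Cox7c probe set ran from 30.4 to 230.1 in saline (median 81.5) and from 9.3 to 202.6 in JA16 (median 92.6). Its difference of -0.19 had the largest error of all members (SE 0.21, adjusted p = 0.672, limma), and its pair differences ran from -1.82 in pair 8 to 0.56 in pair 3. The mean of Cox7c therefore rested on values near the filter of 50.1.

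Complex V makes ATP. All 12 of its genes had higher means in JA16, between 0.038 and 0.12, with a median of 0.068. Without probe sets whose names end in _a_at, _s_at or _x_at, 8 of 9 did, with Atp5c1 at -0.38. Atp5g1, one of several genes for the identical mature subunit c, ran from 11655 to 17716 in saline (median 15947) and from 14452 to 21789 in JA16 (median 16609). Its difference was 0.12 (SE 0.047, adjusted p = 0.241, limma), with 7 of 10 pairs higher. Atp5l, the membrane subunit g, ran from 8248 to 15867 in saline (median 13869) and from 9747 to 17714 in JA16 (median 13587), with a difference of 0.096 (SE 0.047, adjusted p = 0.324, limma). Atp5d, a subunit of the central stalk, ran from 12860 to 24080 in saline (median 21136) and from 15796 to 28432 in JA16 (median 21016), with a difference of 0.076 (SE 0.049, adjusted p = 0.446, limma). Sample 7 was the lowest saline sample for all of these genes and JA16 sample 2 the highest.

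The catalytic head genes Atp5a1 and Atp5b had differences of 0.065 and 0.052, and the central stalk genes Atp5c1 and Atp5e had 0.065 and 0.070. The peripheral stalk genes had 0.077 for Atp5pb, 0.071 for Atp5h, 0.066 for Atp5o and 0.038 for Atp5j. Atp5g3 had 0.043. None of these 9 genes reached an unadjusted p of 0.05, and all of them overlapped between groups.

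The direction was carried by some pairs and opposed by others. JA16 was higher than its saline partner for 2 of 51 members in pair 1, 49 in pair 2, 27 in pair 3, 42 in pair 4 and 25 in pair 5. It was higher for 45 in pair 6, 49 in pair 7, 42 in pair 8, 23 in pair 9 and 33 in pair 10. The median pair difference of the members was -0.18 in pair 1, 0.25 in pair 2 and 0.26 in pair 7, and it lay between -0.0056 and 0.13 in the other pairs. Over all genes tested the share that was higher in JA16 ran only from 45.7% to 54.2% between pairs. As deposited, nearly all members were thus lower in pair 1 and higher in pairs 2 and 7, while pairs 3, 5 and 9 were split between both directions. These swings were smaller after rescaling. The mean over members other than Cox7c was -0.18, 0.23 and 0.27 in pairs 1, 2 and 7 as deposited. It was -0.051, 0.0099 and 0.067 after quantile normalization and -0.015, 0.12 and 0.044 after cyclic loess. At least 8 of 10 pairs were higher for 13 members, against 10.5% of all genes, and 9 pairs were higher for Ndufb8, Ndufc1 and Ndufv2, against 3.29%.

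**Figure D2:**
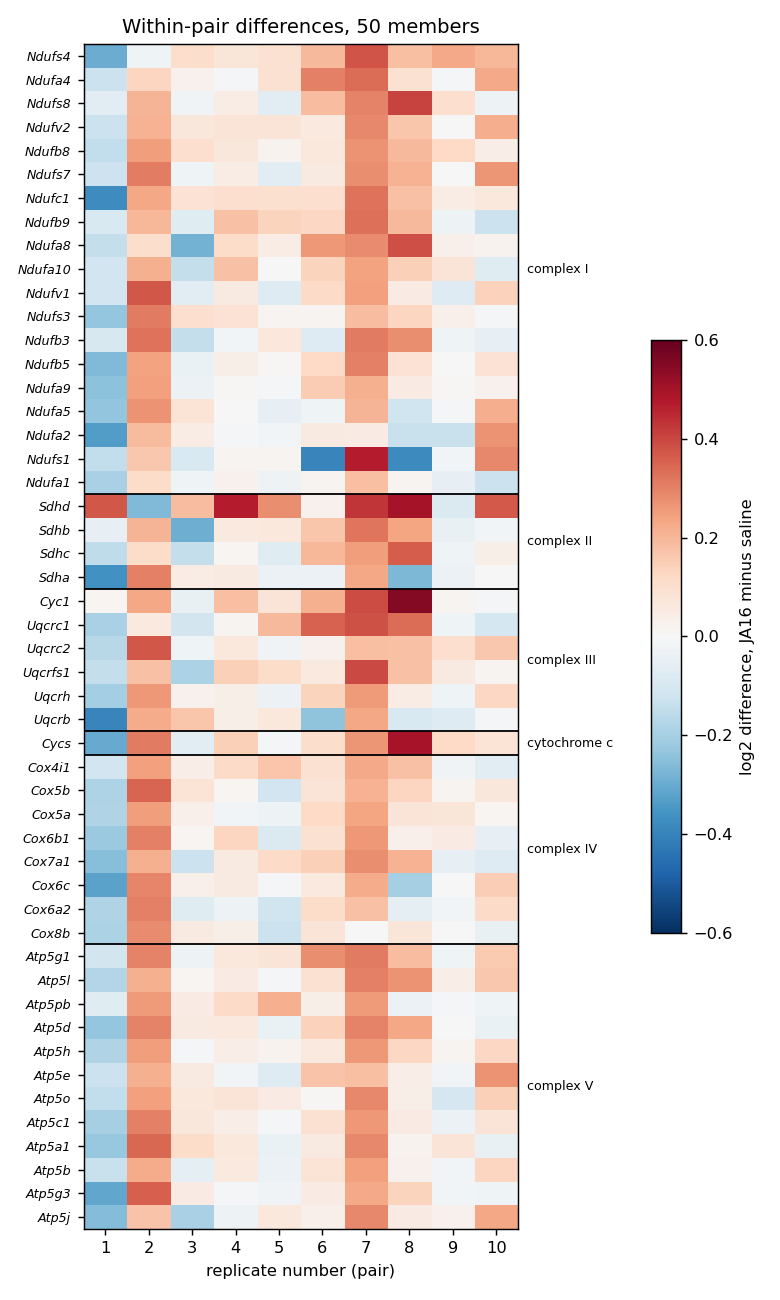
Log2 difference (JA16 minus saline) of 50 members (rows, by complex, Cox7c left out) in each of the 10 pairs (columns), with red for higher and blue for lower in JA16. Pair 1 is blue and pairs 2 and 7 are red through nearly every complex, while Sdhd is red in pair 1.

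A few samples stood at the ends of the range for most members. Saline sample 7 was the lowest saline sample for 39 of the 50 members other than Cox7c, and JA16 sample 2 was the highest JA16 sample for 41. Saline sample 7 also had the highest array median, 77.1. Leaving out pair 1 raised the number of members at an unadjusted p under 0.05 from 6 to 27, with 50 of 51 higher and a median of 0.092, against 8.54% of all genes at that p and 44.2% higher in that fit. Leaving out pair 2 or pair 7 lowered the number to 2 in either case, with medians of 0.046 and 0.044, and leaving out pair 8 lowered it to 3. The share of all genes higher at that p was not taken for those fits, and it was 7.49% with all pairs. By complex, the median ran from 0.035 (without pair 8) to 0.093 (without pair 3) in complex II, from 0.051 (without pair 7) to 0.11 (without pair 1) in complex III and from 0.024 (without pair 2) to 0.083 (without pair 1) in complex IV. No member passed the adjusted threshold when any pair was left out (smallest adjusted p = 0.0840, without pair 2, limma).

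The direction also depended on how the arrays were scaled. After quantile normalization, which gives all arrays the same distribution, 24 of 51 members had higher means in JA16, against 51.2% of all genes, with a median of -0.0027. An unadjusted p under 0.05 was reached by 2 members higher in JA16 and 2 lower, against 8.45% and 7.32% of all genes. After cyclic loess, which removes intensity-dependent differences between arrays, 28 were higher, against 53%, with a median of 0.0025. That p was then reached by 2 members higher and 0 lower, against 9.06% and 6.95%. After centring each array on its median, 50 were higher, against 61.3%, with a median of 0.13. By complex, quantile normalization left 9 of 19 genes higher in complex I, 2 of 4 in complex II, 4 of 6 in complex III, 1 of 9 in complex IV and 7 of 12 in complex V. Sdhd and Cyc1 kept differences of 0.17 and 0.10 after quantile normalization. The count of members with higher means in JA16 thus differed between scalings, and no scaling led to a member past the adjusted threshold.

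The array sets differed more than the treatment groups did. In samples 7 to 10, 45 of the 50 members other than Cox7c had lower mean log2 intensities than in samples 1 to 6, with a median difference of -0.27, against -0.012 over all genes. All 8 complex IV genes were lower, with a median of -0.46, and 18 of 19 complex I genes, with a median of -0.30. In complex V, 11 of 12 were lower, with a median of -0.19. The higher members were Ndufa10, Sdhb, Sdhc, Uqcrc1 and Atp5b. For 15 members the intensities of the sets did not overlap, 14 of them lower and 1 higher in samples 7 to 10, against 11.6% of all genes without overlap.

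Uqcrc1 moved against the rest. It ran from 3603 to 6730 in samples 1 to 6 (median 4833) and from 7763 to 15457 in samples 7 to 10 (median 11805), a difference of 1.25 on the log2 scale. Uqcrc2, its partner in the core of complex III, ran from 15002 to 20841 (median 16225) and from 9345 to 11298 (median 10494), a difference of -0.68. The largest falls among complex I genes were -0.74 for Ndufa2, -0.73 for Ndufa1 and -0.72 for Ndufa5. These sets do not overlap for any of the 5 genes. After quantile normalization 32 of the 50 members were lower, and the median difference was -0.086, -0.28 for complex IV and -0.0043 for complex V. The beta-actin ratio differed between the same sets, and its part in these differences was not tested.

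**Figure D3:**
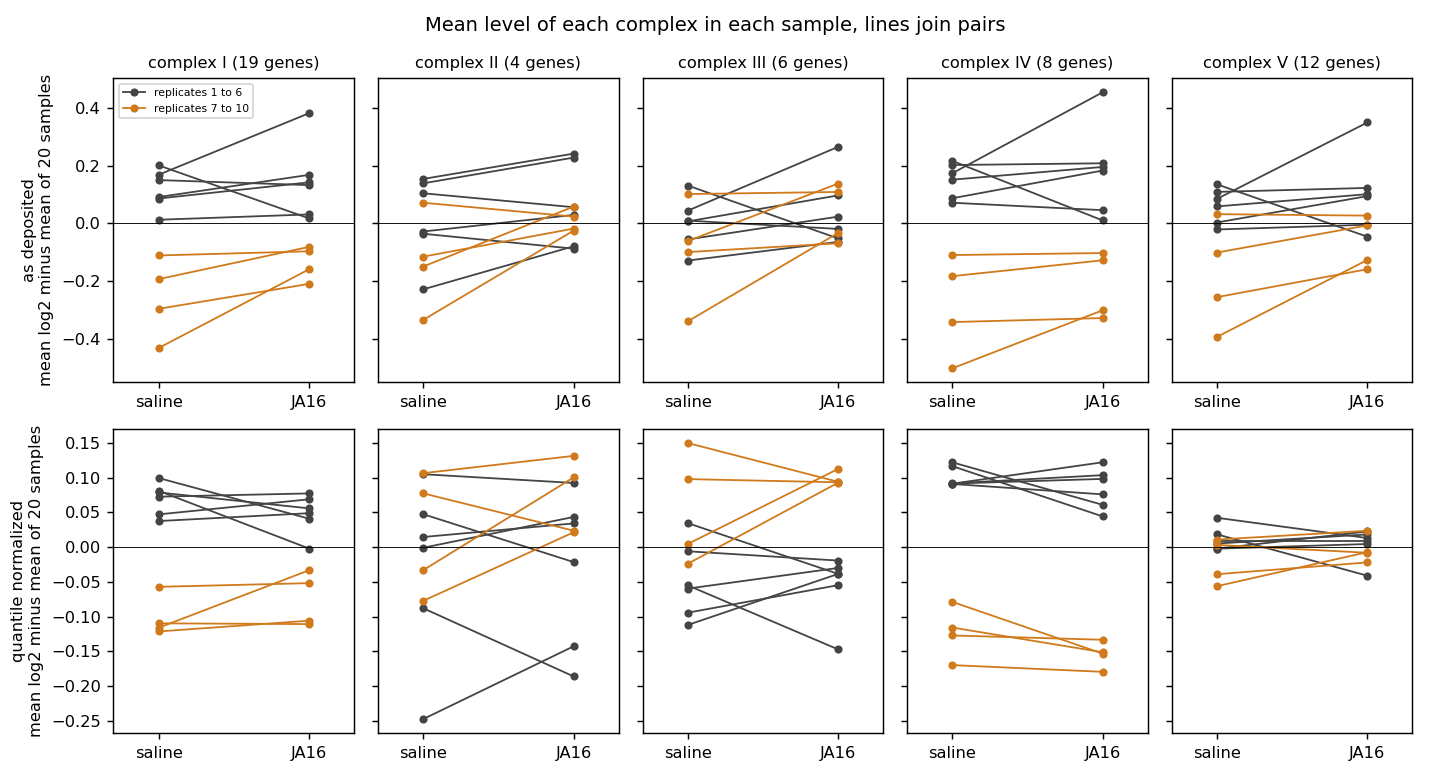
Mean log2 intensity of the members of each complex in each sample, minus the mean over 20 samples, with lines joining same-numbered saline and JA16 samples and colours marking the array sets. The upper row shows deposited values and the lower row quantile-normalized values. Samples 7 to 10 lie below samples 1 to 6 in complex IV in both rows.

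The comparison of JA16 with saline was repeated within each array set. In pairs 1 to 6 the members had a median difference of 0.031 with 43 of 51 higher, against 49.2% of all genes, and none reached an unadjusted p of 0.05. In pairs 7 to 10 the median was 0.10 with 49 higher, against 45.1%, and 7 reached that p higher, against 3.01%. With the beta-actin ratio as a covariate beside the block, 50 members were higher with a median of 0.099, and 14 reached an unadjusted p under 0.05, against 5.05% of all genes. That ratio was lower in JA16 than in the saline partner in most pairs, such as pair 5 (1.33 against 1.73) and pair 6 (1.34 against 1.84). It was higher in pair 2 (1.83 against 1.69) and pair 7 (0.58 against 0.48). Within pairs the covariate thus varied with treatment, so the 2 are not independent in this fit. The difference between the sets was not tested.

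Members varied together from sample to sample. With group means removed, the mean Pearson correlation between pairs of the 50 members over 20 samples was 0.55, against 0.0067 between all genes tested. It was 0.78 within complex IV, 0.73 within complex V and 0.59 within complex I, and it fell to 0.18 within complex III and 0.097 within complex II. Between members of different complexes it was 0.54. Ndufb5, an accessory complex I subunit, followed the mean of the other members most closely (0.98), followed by Atp5c1 and Atp5d (both 0.97). Uqcrc1 ran against it (-0.58), and Sdhd showed almost no relation (0.012). These arrays share 1 scaling each, and the correlations are given as a description. The 50 members are far brighter than most genes tested, and correlations among other bright genes were not compared.

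After quantile normalization the mean correlation was 0.086 over the 50 members, against 0.025 between all genes tested. Within complexes it was 0.32 in complex IV, 0.12 in complex I and -0.0072 in complex V. The low mean over the members combined strong correlations of opposite sign, since 35 members then correlated above 0 and 15 below 0 with the mean of the others. Ndufc1 (0.88), Cox7a1 (0.87), Cox4i1 (0.80) and Cox6b1 (0.79) were among the former, and Uqcrc1 (-0.80), Cox5a (-0.79) and Atp5b (-0.70) among the latter. With deviations taken within group and array set, the mean correlation was 0.51 as deposited, against 0.016 between all genes tested. It was 0.79 in complex V, 0.64 in complex IV, 0.42 in complex I, 0.38 in complex III and 0.11 in complex II. After quantile normalization the mean over the members was 0.062, against 0.032 between all genes tested. Complex IV then had 0.058 and complex V 0.055.

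**Figure D4:**
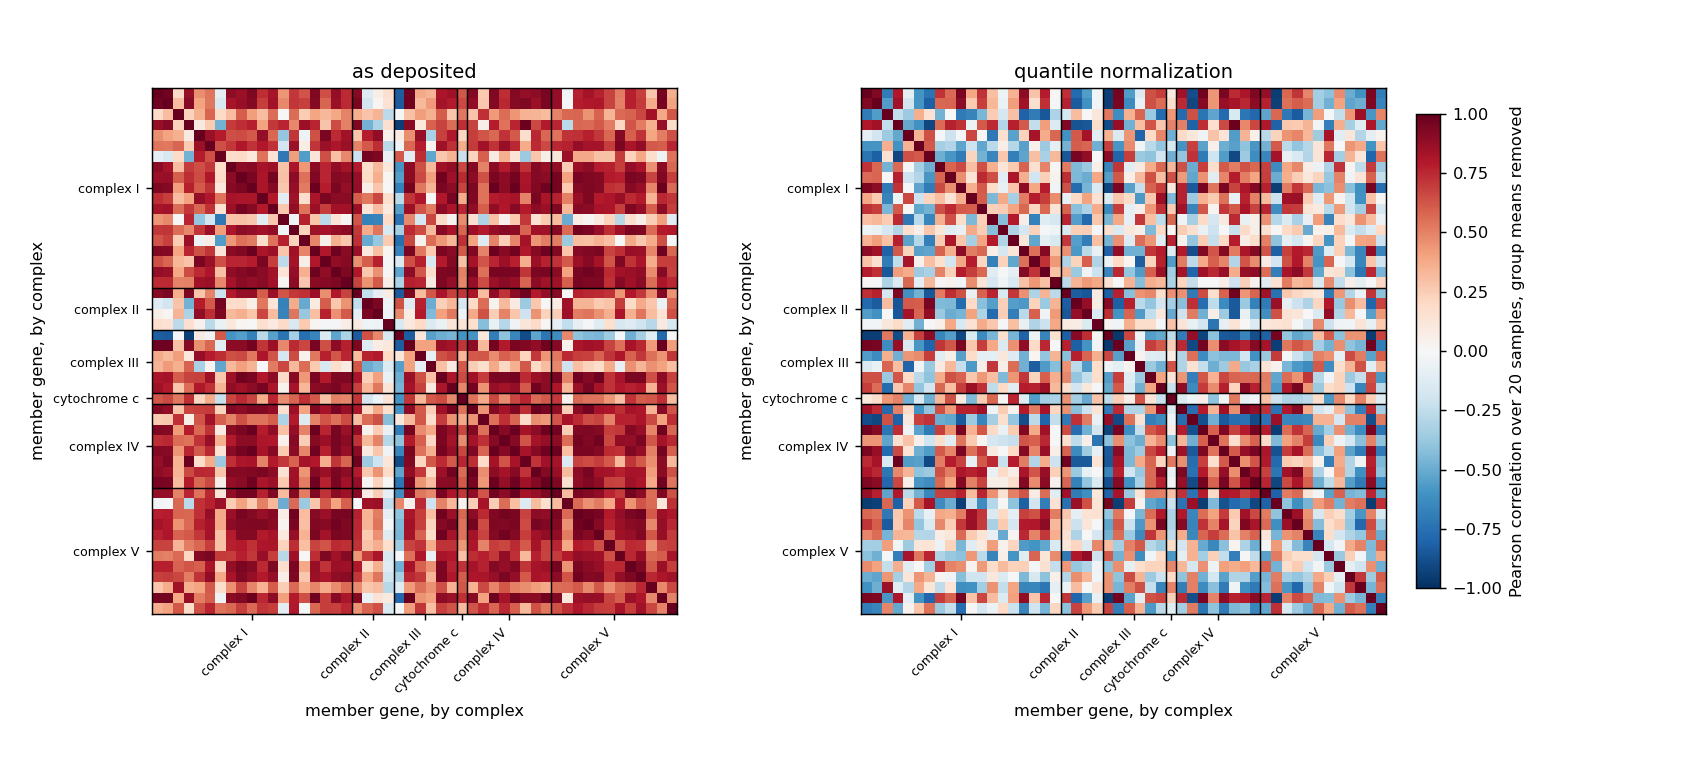
Pearson correlation of each pair of 50 members over 20 samples with group means removed, as deposited (left) and after quantile normalization (right), ordered by complex. The left panel is red through complexes I, IV and V (mean correlations 0.59, 0.78 and 0.73) with pale bands in complexes II and III, and in the right panel the mean over all pairs is 0.086.

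Several subunits are encoded by more than 1 gene, among them muscle and broadly expressed forms of Cox6a, Cox7a and Cox8, and the log2 ratio of such a pair within an array removes a factor shared by that array. Of the 5 gene pairs compared, Atp5g1 and Atp5g3 encode the same mature subunit and Cox4i2 is a form linked to low oxygen. They were tested by an exact two-sided sign-flip permutation test over the 10 pairs (1024 patterns, smallest possible p = 0.0020). The ratio Cox6a2 to Cox6a1 changed by -0.045 (SE 0.10, p = 0.656), Cox7a1 to Cox7a2 by -0.023 (SE 0.040, p = 0.578) and Cox8b to Cox8a by -0.0054 (SE 0.15, p = 0.977) in exact tests. Cox4i1 to Cox4i2 changed by -0.18 (SE 0.19, exact p = 0.379). The ratio Atp5g1 to Atp5g3 was higher in JA16 by 0.077 (SE 0.033, 7 of 10 pairs, exact p = 0.0488), which did not hold after adjustment over the 5 ratios (adjusted exact p = 0.244). No ratio differed beyond the spread between pairs after adjustment.

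The partner genes themselves gave these ranges. Cox6a1 ran from 6522 to 11270 in saline (median 8474) and from 5689 to 12881 in JA16 (median 8967), and Cox6a2 from 11319 to 18884 (median 16004) and from 12795 to 21675 (median 15714). Cox7a2 ran from 15461 to 23859 (median 21678) and from 16789 to 27728 (median 20436), and Cox7a1 from 6648 to 13823 (median 10939) and from 8077 to 15079 (median 11210). Cox8a ran from 600.3 to 1091 (median 867.7) and from 550.6 to 1387 (median 808.0), and Cox8b from 11234 to 20767 (median 19093) and from 11221 to 25105 (median 17536). Every pair of ranges overlapped between the groups. Atp5g3 ran from 15235 to 21486 (median 19214) and from 15173 to 24689 (median 19316). Cox4i2 ran from 38.1 to 228.6 (median 143.7) and from 105.5 to 242.9 (median 152.9), so the ratio with Cox4i1 rested on a dim probe set.

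Genes around the pathway were read from lists of known members. Of 28 measured subunit genes outside the 51, 24 had higher means in JA16, with a median of 0.076 (0.016 after quantile normalization). Ndufb7, an accessory complex I subunit, ran from 9753 to 14938 in saline (median 13215) and from 12032 to 17997 in JA16 (median 14204), with a difference of 0.17 (SE 0.059, adjusted p = 0.203, limma). Ndufab1, the mitochondrial acyl carrier protein, ran from 9764 to 14384 and from 11507 to 16760, with medians of 12253 and 13322 and a difference of 0.13 (SE 0.050, adjusted p = 0.221, limma). ND5, the only gene of mitochondrial DNA with a probe set of its own, had a difference of 0.034 (SE 0.042, adjusted p = 0.711, limma), from 13445 to 19887 in saline and 13158 to 19161 in JA16. None of these genes passed the adjusted threshold.

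Assembly factors, which build the complexes without staying in them, had the highest median of these lists with all pairs, but mostly not with 1 pair left out. Mitochondrial carriers, channels and import genes then mostly had the higher median. It was 0.126 against 0.117 without pair 1 and 0.086 against 0.070 without pair 7. Assembly factors led only without pair 3, 4 or 6, with 0.10 against 0.086 without pair 4. Of 41 measured, 34 had higher means in JA16, with a median of 0.095 that was 0.098 after quantile normalization. An unadjusted p under 0.05 was reached by 12 of the 41, all higher, against 7.49% of all genes and 15% of the 3001 brightest genes: Ndufaf4, Ndufaf5, Ndufaf6, Foxred1, Sdhaf1, Sdhaf2, Bcs1l, Uqcc2, Uqcc3, Cox10, Cox19 and Coa3. The brightest genes had a mean log2 of at least 10.74 (intensity 1716). Several of the 12, such as Foxred1 and Ndufaf6, lay below that level, so this share is not matched to them in brightness. Ndufaf6, a complex I assembly factor, ran from 749 to 1298 in saline (median 1036) and from 1047 to 1619 in JA16 (median 1368). Its difference was 0.36 (SE 0.076, adjusted p = 0.0640, limma), with all 10 pairs higher, and it passed after cyclic loess (0.39, adjusted p = 0.0497, limma). Ndufaf4, another complex I assembly factor, ran from 2163 to 3065 in saline (median 2601) and from 2653 to 3507 in JA16 (median 3062), with a difference of 0.24 (SE 0.061, adjusted p = 0.118, limma) and all 10 pairs higher. Both genes overlapped between the groups.

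In the citric acid cycle, which feeds the chain with NADH and succinate, 10 of 16 genes had higher means, with a median of 0.043. After quantile normalization 6 of 16 were higher with a median of -0.016, and the deposited median was 0.019 without pair 7 and 0.025 without pair 2. Suclg1, a subunit of succinyl-CoA ligase, ran from 7215 to 11504 in saline and 8659 to 11484 in JA16, with a difference of 0.10 (SE 0.051, adjusted p = 0.318, limma). Dlst, of the oxoglutarate dehydrogenase complex, ran from 3007 to 6805 and from 3084 to 7597, with a difference of 0.15 (SE 0.079, adjusted p = 0.350, limma). Of 19 carriers, channels and import genes 18 had higher means, with a median of 0.092 (0.047 after quantile normalization). Timm50, of the inner membrane import machinery, had 0.31 (SE 0.087, adjusted p = 0.151, limma), and it ran from 1046 to 2511 in saline and from 1148 to 4055 in JA16. Vdac2, an outer membrane channel, had 0.15 (SE 0.046, adjusted p = 0.191, limma) and ran from 11103 to 16298 and from 13567 to 18408. No gene of these lists passed the adjusted threshold.

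Of 20 regulators of mitochondrial biogenesis, 7 had higher and 13 lower means in JA16, with a median of -0.038, against 45.8% of all genes higher. After quantile normalization 9 were higher, with a median of -0.013, and the deposited median was -0.018 without pair 3 and -0.066 without pair 2. Esrrg, Tfam, Tfb2m and Sirt1 reached an unadjusted p under 0.05 with lower means, and Tfb1m with a higher one. Over all genes, 8.76% reached it lower and 7.49% higher. Tfam, which packages and transcribes mitochondrial DNA, ran from 1386 to 2490 in saline (median 1577) and from 898.3 to 1983 in JA16 (median 1552), with a difference of -0.25 (SE 0.084, adjusted p = 0.200, limma). Sirt1, a deacetylase of the coactivator PGC-1alpha, ran from 106.6 to 564.6 (median 215.6) and from 59.7 to 525 (median 170.6), with a difference of -0.35 (SE 0.12, adjusted p = 0.193, limma). Ppargc1a, which encodes that coactivator, had -0.18 (SE 0.11), Nrf1 -0.13 (SE 0.13), Gabpa -0.28 (SE 0.15) and Esrra 0.092 (SE 0.11), each with an adjusted p above that of Tfam. None passed the adjusted threshold.

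**Figure D5:**
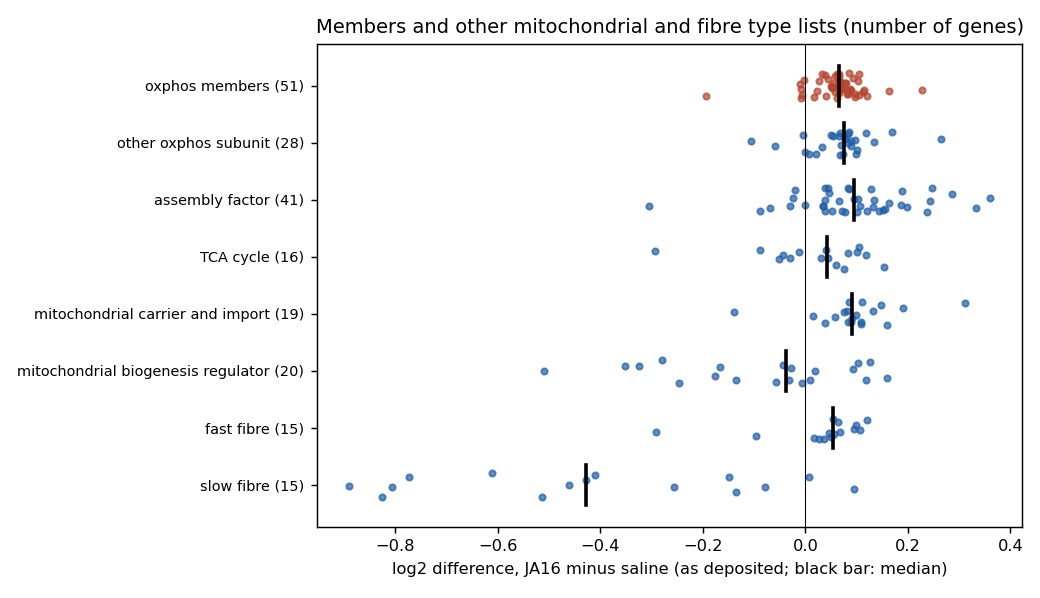
Log2 difference (JA16 minus saline) of the 51 members and of the genes of other mitochondrial and fibre type lists, with 1 point per gene and a black bar at the median. The medians are 0.065 for the members, 0.095 for assembly factors and -0.43 for slow fibre genes.

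Fibre type genes were read because slow fibres hold more mitochondria. Of 15 slow fibre genes 13 had lower means in JA16, with a median of -0.43, and this was -0.074 without pair 3. The slow fibre median was -0.70 in pairs 1 to 6 and -0.053 in pairs 7 to 10. Myh7, the slow myosin heavy chain, ran from 2772 to 16163 in saline (median 7695) and from 389.1 to 19076 in JA16 (median 4437), with a difference of -0.77 (SE 0.39, adjusted p = 0.341, limma). Atp2a2, the slow fibre calcium pump, ran from 5447 to 15162 (median 8705) and from 1552 to 15389 (median 5966), with a difference of -0.51 (SE 0.24, adjusted p = 0.308, limma). Of 15 fast fibre genes 13 had higher means, with a median of 0.054 that was -0.013 after quantile normalization, 0.025 without pair 2, 0.033 without pair 7 and 0.086 without pair 1. Myoz1 and Casq1, of the fast sarcomere and calcium store, had differences of 0.11 (SE 0.043) and 0.12 (SE 0.051), from 13699 to 19732 and 12338 to 16809 in saline and from 14774 to 20103 and 12517 to 17836 in JA16. No gene of either list passed the adjusted threshold.

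Markers of other cell types mostly had lower means in JA16, while the members mostly had higher ones as deposited. The mean difference over members other than Cox7c was 0.067 as deposited and -0.00024 after quantile normalization. The marker medians after quantile normalization were -0.52 for nerve and Schwann, -0.30 for adipocyte and -0.20 for fibroblast and tendon genes. They were -0.13 for macrophage and leukocyte and -0.12 for endothelial and mural genes. All 7 measured nerve and Schwann cell markers were lower, with a median of -0.59. Of these, 6 reached an unadjusted p under 0.05 (smallest adjusted p = 0.118, limma), against 8.76% of all genes lower at that p. Their summed intensities were 10083 to 19367 in saline and 7092 to 18775 in JA16 samples. Endothelial and mural markers were lower in 11 of 12 genes (median -0.17, sums 13894 to 17441 and 11767 to 16212), and fibroblast and tendon markers in 9 of 10 (median -0.20, sums 33384 to 56573 and 23352 to 56667). All 5 measured adipocyte markers were lower (median -0.38, sums 7611 to 12963 and 5004 to 28789), and 5 of 7 macrophage and leukocyte markers (median -0.12, sums 6774 to 27629 and 5864 to 20459). The adipocyte median was -0.17 without pair 3, -0.16 without pair 10 and -0.91 without pair 1, and it was -0.091 in pairs 1 to 6 against -0.94 in pairs 7 to 10. The macrophage and leukocyte median turned to 0.034 without pair 7 and was 0.14 in pairs 1 to 6, and it was -0.063 without pair 10, -0.075 without pair 2, -0.23 without pair 1 and -0.23 without pair 9. The endothelial median was -0.11 without pair 3. The 1 blood cell marker past the filter had -0.096, with sums of 134.6 to 404.7 and 97.1 to 491.9, and its difference ran from -0.15 to -0.044 with pairs left out. Hba-a1 and Slc4a1 lay below the filter. Lep, Ucp1, Cidea, Itgam, Cd3e and Cd79a also lay below it. Skeletal muscle markers were higher in 9 of 12 genes, with a median of 0.037 (-0.025 after quantile normalization, and 0.015 to 0.058 with pairs left out). None of these genes passed the adjusted threshold, and their part in the members' differences was not tested.

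Of the members, 30 had further probe sets past the filter, 43 in all. Of these, 39 gave a difference of the same sign as the probe set used. Without probe sets whose names end in _a_at, _s_at or _x_at, 40 members were measured, and 35 had higher means. Ndufb8 and Atp5c1 were then read by dim probe sets with mean intensities of 145.6 and 159.1, against 14805 and 19815 for the probe sets used. Their differences were -0.059 (SE of the pair differences 0.086) and -0.38 (SE 0.14), and Atp5c1 was higher in 2 of 10 pairs. In that setting 8 of 9 complex V genes had higher means, and Atp5c1 was the exception, lower at an unadjusted p under 0.05.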

How the data were processed

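The 20 gastrocnemius RNAs (10 JA16, 10 saline) were amplified and biotin-labelled with NuGEN kits, per the labels' protocols. The authors deposited 1 linear intensity per probe set and array, made with MAS5 per the submitters' processing notes. Its version and masking are not given there. Of 45101 probe sets, the platform annotation gave 1 gene for 34945, several for 932 and none for 9160, and 64 were controls. RefSeq (GRCm38.p6) held the gene identifier of 34741 of the single-gene probe sets.

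Before log2, the 5 intensities at or below 0 became 0.1. Probe sets at or above the median mean log2 (5.65) were kept, and the brightest probe set stood for each gene. The fit used limma 3.58.1 under R 4.3.3, with lmFit and a trended eBayes and with replicate number as a block, Benjamini-Hochberg over 11200 genes and a threshold of 0.05. On simulated data it recovered 50 of 100 genes changed by 0.5 on the log2 scale and 87 of 100 changed by 1, and it called 3 unchanged genes. Changes as small as the members' differences were not simulated. Pandas 2.3.3, numpy 2.4.6 and matplotlib 3.10.9 served for tables and figures, and permutations were enumerated.

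Both groups carry replicate numbers 1 to 10. Samples of one number deviated from their group means together, with correlations of 0.377 to 0.786, whereas samples of different numbers had a median of -0.11. Same-numbered samples always share an array set, whereas many samples of different numbers do not. This contrast therefore cannot separate pairing by number from array set. The numbers were treated as pairs by a rule set beforehand. The number of arrays limits the precision.

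Every measured member is named. Ranges are given, in each complex, for the 2 genes of smallest p, the largest difference and the brightest probe set, for isoform pairs, and for up to 2 genes of smallest p in each mitochondrial or fibre type list. Ranges for Ndufa4, values by array set and the other named list genes were added after their values were seen. Members and lists were chosen with earlier results of these data known. Alternatives were other normalizations, filters, probe set rules, a pseudocount of 16, no trend, no block, array sets, a beta-actin covariate and leaving out each pair. Single libraries left out without the block, quantile normalization without the block, and covariation within array sets were chosen after seeing the data.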

Additional observations from a re-analysis of the deposited data

Results flagged for a closer look

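For every measured member, the gap in log2 intensity between the most extreme of the 10 samples of a group and its neighbour was divided by the group's range, and the same was done for the pair changes of the 5 isoform ratios. Of 107 such sets of values, 5 gave a ratio above the critical value of Dixon's test for 10 samples, where chance gives about 1 in 20.

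Ndufa4 had a low JA16 sample 1, at 11925 with the next sample at 13704 (0.593 of the range). Ndufb9 had a low saline sample 7, at 9022 with the next at 12761 (0.553). Ndufv2 had a high JA16 sample 2, at 18211 with the next at 15426 (0.485). Atp5o had a low saline sample 7, at 14642 with the next at 17675 (0.471), and a high JA16 sample 2, at 22771 with the next at 20330 (0.47). Saline sample 7 and JA16 sample 2 were also the samples at the ends of the range for most other members.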

How the results depend on the processing

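No member passed the adjusted threshold in any of the 45 settings run, in which between 24 and 50 members were higher. Members higher at an unadjusted p under 0.05 (6 in the reported fit) numbered 0 without the replicate block, 2 after quantile normalization (with 2 lower), 2 after cyclic loess (28 members higher), 3 with arrays centred on their medians, 2 without the intensity trend, 0 in pairs 1 to 6 and 14 with the beta-actin ratio and the block. Quantile normalization without the block gave 24 members higher and 0 at that p. With pairs left out in turn they numbered 2 to 27, with 42 to 50 members higher and medians of 0.044 to 0.092. Leaving out single libraries without the block gave 0 to 1, with 38 to 50 higher and medians of 0.025 to 0.092.

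Among genes given ranges for their p, difference or brightness, quantile normalization changed the sign for Sdhb (-0.010), Uqcrh (-0.0056), Cox5b (-0.0021), Cox6b1 (-0.021) and ND5 (-0.038). Cyclic loess did so for Uqcrh (-0.0071), Cox5b (-0.0012), Cox6b1 (-0.020) and ND5 (-0.028). Further members outside this selection changed sign after both, among them Ndufa5 (-0.042 and -0.030), Cox8b (-0.052 and -0.049) and Atp5b (-0.016 and -0.014). Sdha became 0.059 with centred arrays, 0.048 with the beta-actin ratio and 0.047 with the mean of probe sets, and ran from -0.045 to 0.029 with pairs left out. The mean of probe sets gave -0.26 for Dlst and -0.16 for Timm50. Without probe sets whose names end in _a_at, _s_at or _x_at, Ndufb8 became -0.059 and Atp5c1 -0.38. After cyclic loess 1 gene of the other lists passed, Ndufaf6. Isoform ratio changes turned sign for Cox7a1 to Cox7a2 after cyclic loess (0.0010), Cox8b to Cox8a with the mean of probe sets (0.043) and in pairs 7 to 10 (0.053), Cox4i1 to Cox4i2 in pairs 1 to 6 (0.13) and Cox6a2 to Cox6a1 in pairs 7 to 10 (0.078). The cause was not tested. With pairs left out the ratio changes ran from -0.11 to 0.0031 for Cox6a2 to Cox6a1, -0.048 to 0.0019 for Cox7a1 to Cox7a2, -0.086 to 0.090 for Cox8b to Cox8a, 0.060 to 0.094 for Atp5g1 to Atp5g3 and -0.26 to -0.047 for Cox4i1 to Cox4i2. Of 750 values under alternatives of the genes given ranges for p, difference or brightness, 732 kept direction and side of the threshold.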
